A study of Mus musculus with 8 samples.

Results

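Line B (MEF16) is 1 of 2 lines of mouse embryonic fibroblasts in the study, connective tissue cells grown out of embryos, and 1 in which tamoxifen switches the cells from the PKM2 isoform of pyruvate kinase to PKM1. The comparison described here rests on 4 of the 8 samples: the 2 line B samples labelled (+)Tamoxifen (PKM1 expressing) minus the 2 labelled (-)Tamoxifen (PKM2 expressing). The 4 samples of line A (MEF10), 2 of each condition, entered only the estimate of the spread. The samples were picked by their labels, by a rule that uses no measured value. The comparison, the lists and the genes, however, were chosen with earlier results of these data known.

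Total RNA of each sample was hybridised to 1 Affymetrix array, and the values are log2 expression values, of which 19938 named genes were analysed. The labels give no dose or duration of tamoxifen and no allele or Cre driver. They list no tamoxifen-treated cells that keep PKM2, so the effect of the drug and that of the isoform cannot be told apart. Whether 2 samples of a group came from separate cultures is not stated either, so the p-values here reflect only how far these samples lay apart, which may be technical. Samples are numbered 1 and 2 in the order given, and equal numbers do not pair them. Some label fields speak of mammary tumors, although fibroblasts are named in the titles, the source and the series' design text. Of 15 fibroblast markers, 14 lay above the median level of all genes in line B, against 3 of 17 epithelial and mammary markers and 7 of 23 macrophage and blood cell markers. Probe sets differ in brightness, so this is a rough check. Vim, an intermediate filament protein of mesenchymal cells, was measured at 12.96 and 13.04 without and 13.05 and 12.99 with tamoxifen, and Epcam, an epithelial adhesion protein, at 6.03, 6.09, 6.04 and 5.97 in the same order.

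Pyruvate kinase makes pyruvate and ATP in the last step of glycolysis. The Pkm gene yields PKM1 or PKM2 through a choice between a pair of mutually exclusive exons, a choice in which the splicing repressors Ptbp1, Hnrnpa1 and Hnrnpa2b1 and the splicing factor Srsf3 take part. PKM1 is a constantly active tetramer typical of muscle and brain, while PKM2, the form of most proliferating cells, is regulated by metabolites and by phosphotyrosine proteins. Interferon-induced genes, which come up repeatedly below, are switched on by STAT and IRF transcription factors that bind the interferon-stimulated response element of their promoters, and encode proteins that sense or restrict viruses. Genes of mitosis are switched on late in the cell cycle through another promoter element, the cell cycle homology region.

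The strongest differences in line B were in interferon-induced genes, and stretches of promoter are shown for 4 of them because these members differed together. That of Mmp13 is shown because it was the 1 called gene outside the interferon lists. The sequences come from RefSeq promoters of the mouse build GRCm38.p6, read 5′ to 3′ on the strand of the gene. Capitals mark the match to the core of the interferon-stimulated response element that lies nearest to the start of transcription, on the opposite strand in these examples.
Ifit1 (chr19:34640775-34640843, + strand): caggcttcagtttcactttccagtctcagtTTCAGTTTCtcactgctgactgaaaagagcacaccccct
Ifit3 (chr19:34583397-34583465, + strand): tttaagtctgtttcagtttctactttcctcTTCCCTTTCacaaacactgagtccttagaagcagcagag
Trim30d (chr7:104507851-104507919, - strand): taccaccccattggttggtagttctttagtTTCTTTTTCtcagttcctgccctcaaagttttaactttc
Ifih1 (chr2:62646329-62646397, - strand): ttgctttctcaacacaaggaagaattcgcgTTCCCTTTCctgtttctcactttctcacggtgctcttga
Mmp13 (chr9:7272339-7272407, + strand): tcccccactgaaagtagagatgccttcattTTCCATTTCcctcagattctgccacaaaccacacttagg
The stretch of Ifit3b matched that of Ifit3 at 69 of 69 bases, and that of Trim30a matched Trim30d at 64 of 65. These pairs are close copies of each other, so that probes may not tell their transcripts apart.

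The motif GAAANNGAA was searched on both strands of the 250 bases before the start. Promoters were found for 67 of 86 measured genes of 6 lists of interferon-induced effectors, and 34 of their 78 promoters held it (43.59%) against 6.79% of all 19177 promoters of measured genes. Of the 17 promoters found for the 18 genes that were at least 2-fold higher with tamoxifen, 11 held it. A match is a description of the letters and not a site of binding.

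Samples of the same line B group lay far apart, and this sets what the comparison can show. The median absolute difference between the pair without tamoxifen was 0.154 on the log2 scale and that between the pair with tamoxifen 0.148, against 0.106 and 0.078 in line A without and with tamoxifen. The median absolute difference between the means of the line B groups was 0.080. The difference between the means exceeded both replicate differences in 3086 genes (15.5%). The standard errors, intervals and p-values given below pool the spread of all 4 groups. Because the line A pairs lay closer together, many of them may be too small or too narrow for line B.

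The pairs differed along a shared set of genes, in crosswise fashion. Over all genes, PKM2 replicate 1 correlated best with PKM1 replicate 2 (r = 0.9946) and PKM2 replicate 2 with PKM1 replicate 1 (r = 0.9944), above the correlation within the PKM2 pair (0.9907) and within the PKM1 pair (0.9894). These are correlations across genes, which share the arrays and are not independent. A 2-fold difference separated 19 genes within the PKM2 pair and 102 within the PKM1 pair, and 11 genes in both, all 11 with opposite sign under the given numbering. The leading axis of the differences between samples of a group held 61.8% of their variance over all 8 samples. Scores on it were -0.45 and 0.45 for the PKM2 replicates and 0.49 and -0.49 for the PKM1 replicates. Which sample is called 1 or 2 is arbitrary, so the signs have no meaning beyond showing who resembles whom. What separates the samples of a group was not tested.

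**Figure D1:**
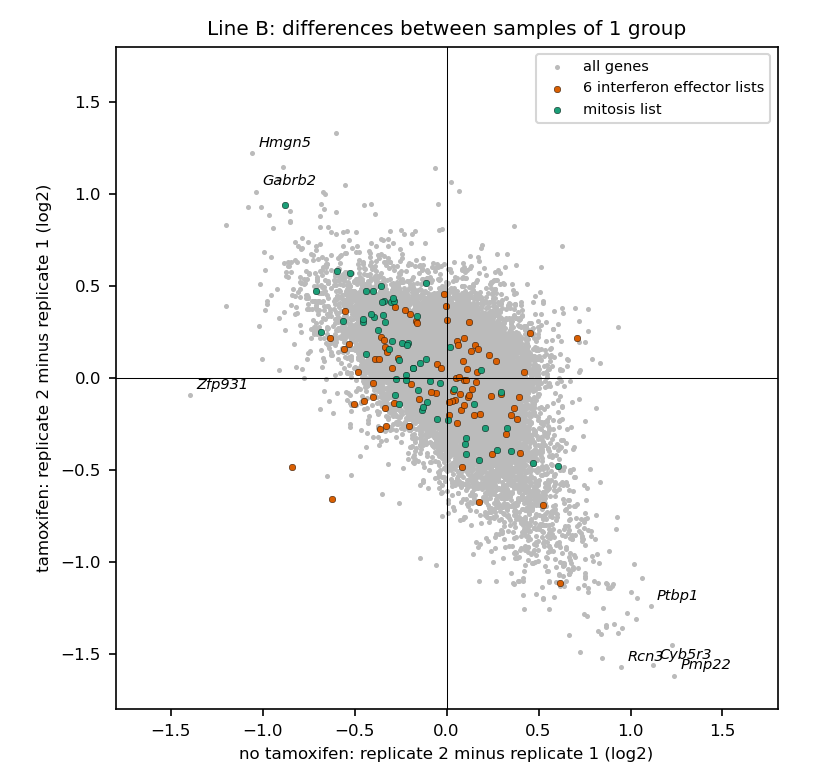
Difference between the 2 samples of each line B group for every gene (log2), the pair without tamoxifen on the x axis and the pair with tamoxifen on the y axis, with the members of the interferon and mitosis lists in colour. The cloud runs from upper left to lower right, with Hmgn5 and Gabrb2 at one end and Pmp22, Cyb5r3 and Ptbp1 at the other.

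Pmp22, a membrane protein of myelin that fibroblasts also make, was at 11.42 and 12.66 without and at 12.60 and 10.98 with tamoxifen. It was high in one sample of each group and low in the other, so the groups overlapped, and the difference between their means was -0.25 with a standard error (SE) of 0.52. Cyb5r3, the cytochrome b5 reductase, was at 9.59 and 10.71 without and at 10.93 and 9.37 with. Gadd45g, a stress-induced growth regulator, was at 7.27 and 8.50 without and at 8.57 and 7.12 with. Piezo1, a mechanically gated channel, Rcn3, a calcium-binding protein of the endoplasmic reticulum, Atp6v0b, a subunit of the vacuolar proton pump, and Yif1a, a Golgi transport protein, followed the same order of samples. The mirror image was seen in Hmgn5, a nucleosome-binding protein, at 10.12 and 9.06 without and 8.88 and 10.10 with. Gabrb2, a GABA receptor subunit, and Pde4d, a cAMP phosphodiesterase, were likewise highest in PKM2 replicate 1 and PKM1 replicate 2. None of these genes passed the test between the groups, and any difference in them between single samples with and without tamoxifen would turn on which samples are set against each other.

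Across all genes, limma (moderated linear model, Benjamini-Hochberg adjustment, threshold 0.05) found 4 genes that rose with tamoxifen, which is 0.0201% of the genes tested in either direction and 0.0201% for rises. It found 0 genes that fell (0%). Before adjustment, 490 genes were higher and 472 lower at p under 0.05. Without PKM2 replicate 2 or without PKM1 replicate 1 of line B the count of calls was 0, without PKM1 replicate 2 it was 2, and without either PKM1 sample of line A it was 1. A description that needs no test is whether groups overlap: both samples with tamoxifen lay above both without in 2386 genes (12%) and below in 2568 (12.9%). The gap was also wider than the range within either group in 572 genes that were higher (2.87%) and 667 that were lower (3.35%). A permutation test of 2 against 2 samples cannot go below an exact two-sided p of 0.333, so none was run on single genes. By size, 18 genes were at least 2-fold higher and 0 at least 2-fold lower, and of the 18, 17 had such a wide gap.

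**Figure D2:**
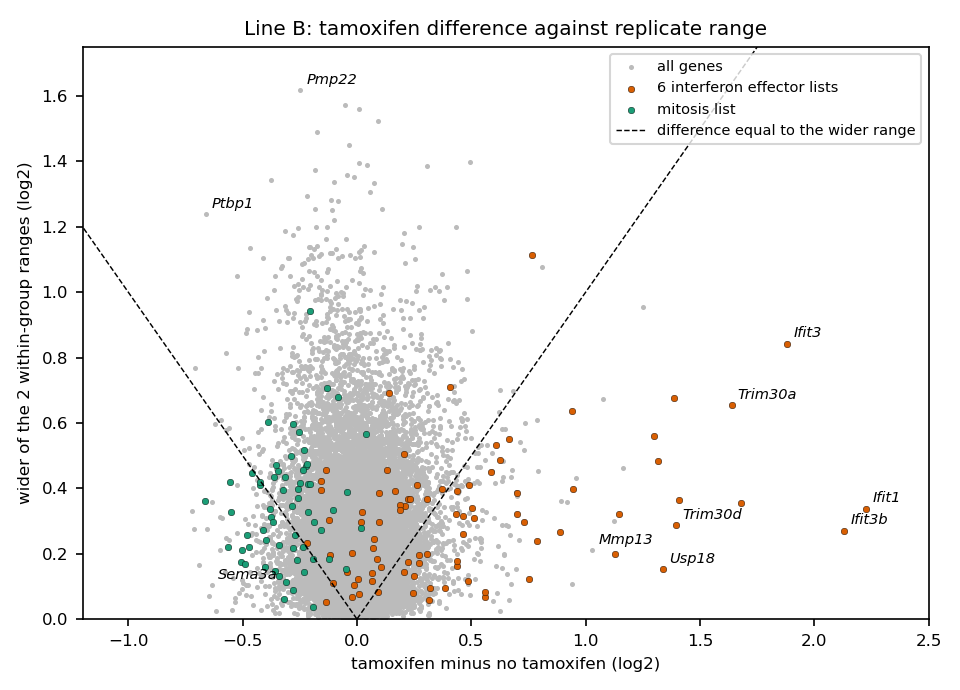
Difference between the line B group means (x axis, log2) against the wider of the 2 within-group ranges (y axis, log2) for every gene, with the interferon and mitosis lists in colour. Points below the dashed lines differ by more than either replicate range, and those far to the right are interferon-induced genes led by Ifit1 and Ifit3b.

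Ifit1 encodes a protein that binds viral RNA lacking a normal cap. It was at 6.60 and 6.26 without tamoxifen and at 8.57 and 8.74 with it. Both samples with tamoxifen were clearly higher, and the difference was 2.23, or 4.68-fold (SE 0.18, 95% interval 1.81 to 2.64, adjusted p = 0.00956 with limma, n = 2 samples a group). Trim30d, a member of the mouse Trim30 cluster of interferon-induced ubiquitin ligase genes, was at 7.47 and 7.18 without and at 8.78 and 8.65 with. The groups did not overlap and the difference was 1.40, or 2.63-fold (SE 0.12, adjusted p = 0.00956 with limma). Usp18 removes the ubiquitin-like protein Isg15 from its targets and dampens signalling by the type I interferon receptor. It was at 7.12 and 6.97 without and at 8.44 and 8.33 with, a difference of 1.34, or 2.53-fold (SE 0.13, adjusted p = 0.0228 with limma). Mmp13, a collagenase secreted by fibroblasts and bone cells, was the 1 called gene outside the interferon lists. It was at 8.55 and 8.34 without and at 9.52 and 9.43 with, a difference of 1.03, or 2.04-fold (SE 0.11, adjusted p = 0.0484 with limma). Of 18 other settings of the analysis, the call was lost in 5 for Ifit1, 5 for Trim30d, 9 for Usp18 and 15 for Mmp13.

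**Figure D3:**
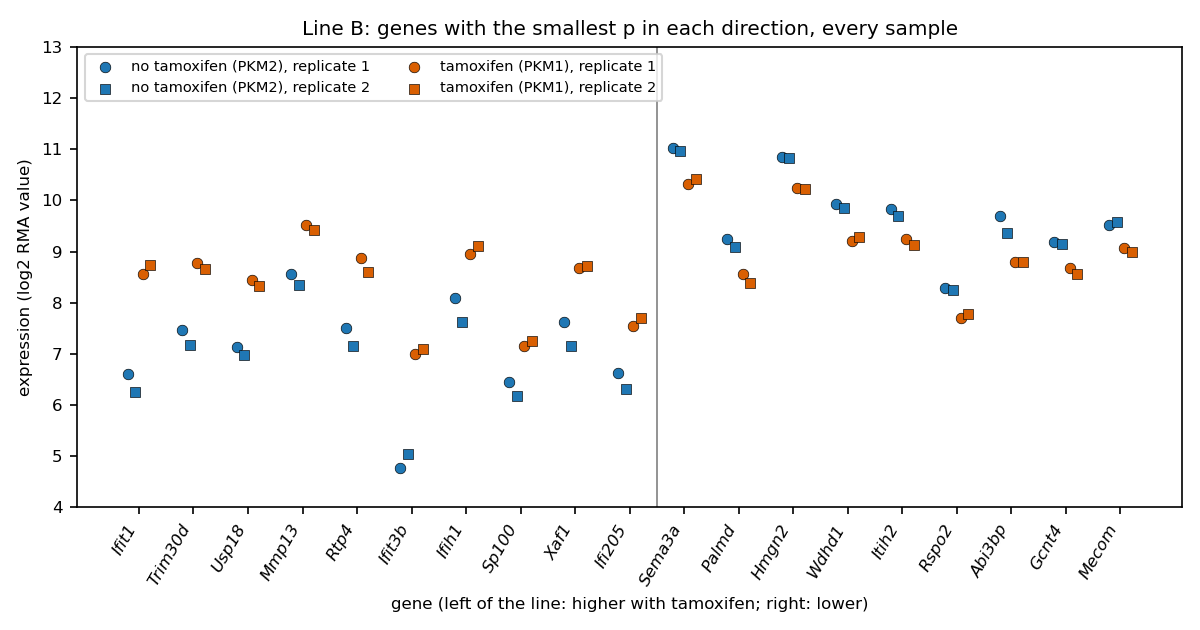
Log2 expression of the 10 genes higher and 9 of the 10 genes lower with tamoxifen that had the smallest p, 1 point per line B sample (circles replicate 1, squares replicate 2; blue without, orange with tamoxifen). In each gene the orange points lie on one side of both blue points, and the separations are wider for the higher genes than for the lower ones.

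Several genes that missed the threshold had differences of the same size. Ifit3b was at 4.77 and 5.04 without and 6.99 and 7.09 with, a difference of 2.13 (SE 0.26, adjusted p = 0.0676 with limma). Its near copy Ifit3 was at 7.22 and 6.38 without and 8.93 and 8.44 with, a difference of 1.88 (SE 0.34, adjusted p = 0.192), with a wider spread in both groups. Rtp4, an interferon-induced chaperone of receptors, was at 7.51 and 7.15 without and 8.87 and 8.60 with (adjusted p = 0.0653). Ifih1, the MDA5 sensor of long double-stranded RNA, was at 8.09 and 7.63 without and 8.94 and 9.11 with, a difference of 1.16 (SE 0.14, adjusted p = 0.0676). Sp100, a scaffold of nuclear bodies, differed by 0.89 and Xaf1, an apoptosis-promoting protein, by 1.32. In all of these the groups did not overlap.

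Taking 6 lists of interferon-induced effectors together, 86 of 108 genes were measured. Limma called 3 of them higher and none lower (0.0201% and 0% of all genes). At an unadjusted p under 0.05, 46 were higher and 0 lower, beside 490 higher and 472 lower of all 19938 genes. Both samples with tamoxifen lay above both without in 51 of the 86 and below in 3 (beside 12% and 12.9% of all genes). The gap was wide in 29 above and 1 below (beside 2.87% and 3.35% of all genes). The median difference was 0.31, against -0.01 over all genes. The mean level of the 86 genes was 6.91 and 6.88 without tamoxifen and 7.38 and 7.36 with it. This mean was nearly the same within a group and did not follow the crosswise order of the samples. Single lists could still lean that way, as the p200 list below did. Of the 18 genes that were at least 2-fold higher, 13 belonged to these lists. The 5 outside them were Ifih1, Mmp13, the chemokine Cxcl10, the collagen-binding proteoglycan Lum and the lipid carrier Apod, of which Cxcl10 and Apod were named after their values were seen.

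The members of the lists differed in size of response. In the list of Ifit genes and of the Isg15 conjugation pathway, with 10 measured members, 7 lay above (beside 12% of all genes). Their median difference was 0.29. Ifit1, Ifit3b, Ifit3 and Usp18 differed by more than 1, while Ifit2, another RNA-binding member of the family, differed by 0.31. Isg15 itself had no probe set of its own among those analysed here. Of 9 oligoadenylate synthetases, which make the activator of RNase L, 3 lay above (33.3%, beside 12% of all genes). The median was 0.01 (between -0.05 and 0.05 when 1 line B sample was left out). Oasl2, at 6.71 and 6.89 without and 8.52 and 7.84 with, stood at 1.38 (SE 0.19), while Oas1a, at 6.99 and 6.65 without and 7.09 and 6.93 with, overlapped. Oas2 and Oas3 differed by -0.04 and -0.02.

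Genes of the p200 family bind DNA in the nucleus and cytosol and lie side by side in the genome. Of 8 measured, 4 lay above and 1 below (50% and 12.5%, beside 12% and 12.9% of all genes). The median difference was 0.46 (between 0.34 and 0.65 when 1 line B sample was left out). The list leaned to the crosswise order: its median of replicate 2 minus replicate 1 was -0.30 without and 0.19 with tamoxifen. How much of the difference goes with that order was not tested. The median difference was 1.30 with the 30% dimmest genes left out, which leaves fewer members. That cut used the mean over all 8 samples, so high values with tamoxifen help a member to pass it. Ifi203 was at 7.40 and 7.04 without and 8.79 and 9.01 with, a difference of 1.68 (SE 0.24, adjusted p = 0.0876 with limma). Ifi205, at 6.63 and 6.31 without and 7.54 and 7.70 with, differed by 1.15, and Ifi207 by 1.30. These genes are similar in sequence, so that a part of each value may be read from a neighbour. Ifi214, of the same family but named for its spread, was near 5 in 3 samples (4.97, 4.99 and 4.93) and at 5.99 in PKM1 replicate 2 alone.

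Of 12 guanylate-binding proteins and immunity GTPases, which attack vacuoles that hold parasites, 7 lay above and 1 below (beside 12% and 12.9% of all genes). Their median was 0.41. Irgm1, a regulator of that family, was at 9.06 and 8.66 without and 9.86 and 9.75 with, a difference of 0.94 (SE 0.13, adjusted p = 0.0876). Gbp3, at 6.28 and 6.31 without and 7.11 and 6.99 with, differed by 0.75 (SE 0.11, adjusted p = 0.0885). Mx1, a GTPase against influenza virus, differed by -0.14. Of 11 Trim genes, 7 lay above and none below, with a median of 0.44. Trim30a was at 7.09 and 6.47 without and 8.75 and 8.09 with, a difference of 1.64 (SE 0.23, adjusted p = 0.0876), and Trim12a and Trim12c differed by 0.73 and 0.94.

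The longest list, of 36 other effectors, had 23 members above and 1 below (beside 12% and 12.9% of all genes). Of them 11 lay above with a wide gap (beside 2.87% of all genes), and the median was 0.36. Ddx60, a helicase that supports RNA sensing, was at 5.51 and 5.75 without and 6.47 and 6.37 with, a difference of 0.79 (SE 0.11, adjusted p = 0.0876). Eif2ak2, the kinase PKR, differed by 0.61 and Bst2, which tethers budding virus to the cell surface, by 0.48. Lgals3bp, a secreted galectin-binding protein, differed by 0.77 with overlapping groups.

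The sensors and the signalling chain upstream were less uniform. Of 14 genes of RNA and DNA sensing, 5 lay above and none below (beside 12% and 12.9% of all genes), with a median of 0.07. The median was 0.18 without PKM2 replicate 2, 0.17 without PKM1 replicate 2 and 0.04 without PKM2 replicate 1. Besides Ifih1, Ddx58, the RIG-I sensor, was at 9.22 and 8.98 without and 9.68 and 9.60 with, a difference of 0.54 (SE 0.11, adjusted p = 0.272), and Tlr3, the endosomal receptor of double-stranded RNA, differed by 0.64. Of 20 interferon genes, receptors, JAK kinases, STATs and IRFs, 3 lay above and 3 below (15% each, near those shares), with a median of 0.00 and no call. Stat2 and Irf9, subunits of the factor that binds the response element, differed by 0.44 (SE 0.14, adjusted p = 0.749) and 0.36 (SE 0.13, adjusted p = 0.871). Irf7, the amplifier of interferon production, was at 6.89 and 6.70 without and 6.72 and 6.75 with, and overlapped. The type I interferon genes Ifnb1 and Ifna4 differed by -0.16 and -0.17. Of 14 genes of the immunoproteasome and of peptide loading, 4 lay above and 3 below. B2m, the light chain of class I molecules, was at 12.71 and 12.55 without and 12.88 and 12.87 with.

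Of 26 chemokine ligands, 12 lay above and 5 below (46.2% and 19.2%, beside 12% and 12.9% of all genes), with a median of 0.10 and no call. The median was 0.17 without PKM1 replicate 1, 0.16 without PKM2 replicate 2 and 0.22 with the 30% dimmest genes left out. High values with tamoxifen help a gene to pass that last cut. Cxcl10, which is interferon-induced and attracts T cells, was at 6.91 and 7.05 without and 8.71 and 7.75 with, a difference of 1.25 (SE 0.28, adjusted p = 0.312), and the samples with tamoxifen differed from each other by nearly as much as from the others. Chemokines of the CCL2 cluster, which attract monocytes and eosinophils, were tighter. Ccl2 was at 10.99 and 10.98 without and 11.64 and 11.56 with, a difference of 0.61 (SE 0.10, adjusted p = 0.139). Ccl11 was at 8.61 and 8.32 without and 9.18 and 9.54 with, a difference of 0.89 (SE 0.15, adjusted p = 0.156), and Ccl12 and Ccl7 differed by 0.64 and 0.51. Lower values were found for the neutrophil attractants Cxcl3 and Cxcl5 (-0.50 and -0.45) and for Cxcl12 (-0.40).

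Some markers of macrophages and blood cells also lay higher, by a smaller amount. Of the 23 measured, 7 lay above and 2 below (beside 12% and 12.9% of all genes), and 14 overlapped. Differences were above 0 in 17 and below 0 in 6, the lowest at -0.13. The members named below all had higher means with tamoxifen. In 4 the gap above was wide (beside 2.87% of all genes), and none was called. The mean level of the list was 7.06 and 7.03 without and 7.15 and 7.20 with, and its median difference 0.14 (0.08 without PKM2 replicate 2 or without PKM1 replicate 1). Cd14, a receptor of bacterial lipopolysaccharide, was at 6.68 and 6.59 without and 7.09 and 7.02 with, a difference of 0.42 (SE 0.13, adjusted p = 0.674). Members differed in level. Ptprc, the pan-leukocyte surface protein CD45, was at 6.71 and 6.54 without and 6.69 and 7.33 with. Adgre1, an adhesion receptor of macrophages, was at 6.06 and 6.13 without and 6.34 and 6.27 with. Brighter members were Cd53, at 8.31 and 7.88 without and 8.42 and 8.82 with, and Lyz1, at 7.80 and 8.04 without and 8.23 and 8.28 with. In Cd53 and Lyz1 the groups did not overlap, with differences of 0.53 and 0.33. The part of these markers in the interferon result was not tested. In whole cultures a change in the share of a kind of cell and a change in RNA per cell cannot be told apart.

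**Figure D4:**
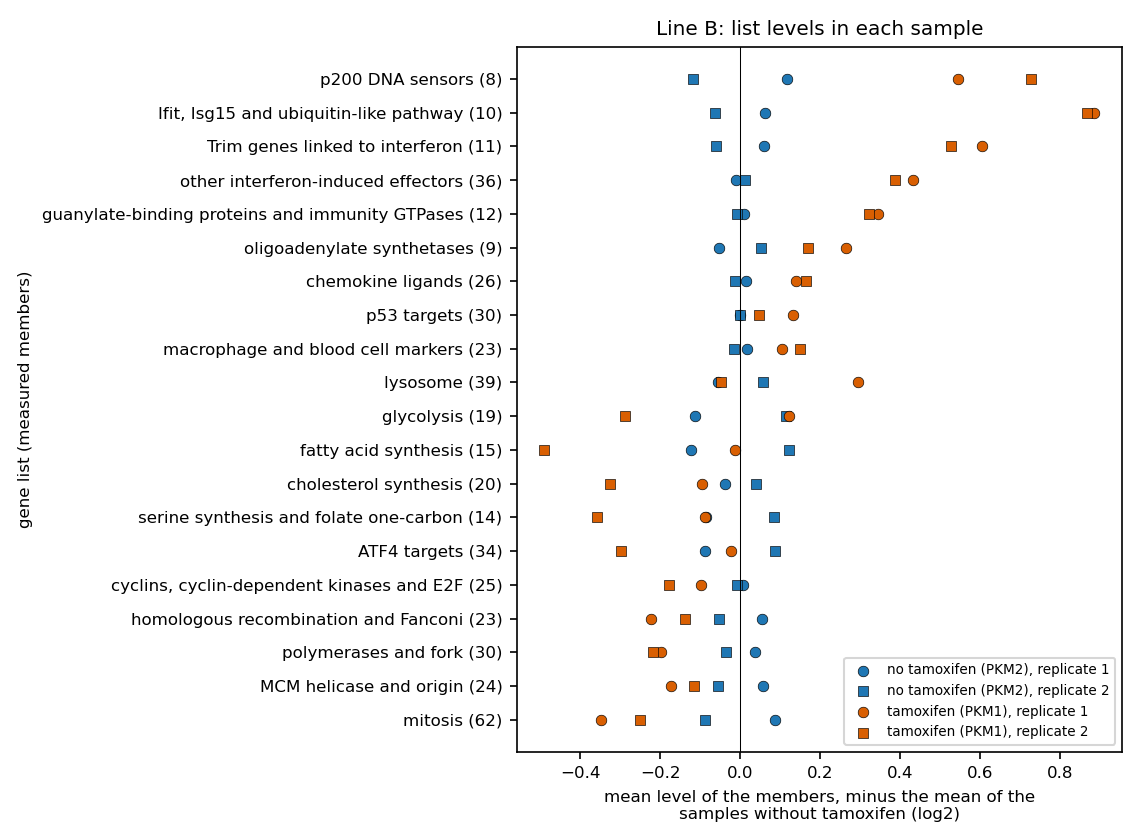
Mean level of the measured members of 20 gene lists in each line B sample, less the mean of both samples without tamoxifen (log2; number of members in brackets; circles replicate 1, squares replicate 2; blue without, orange with tamoxifen). In the 6 lists of interferon-induced effectors both orange points lie right of both blue points and in the mitosis and replication lists left of them, while in glycolysis, lysosome and lipid synthesis the samples of a group lie far apart.

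Genes of cell division lay lower with tamoxifen. No gene of the 4 lists of replication, repair and mitosis was called by limma, of 139 measured. At an unadjusted p under 0.05, 49 were lower and 0 higher, beside 472 lower and 490 higher of all 19938 genes. Both samples with tamoxifen lay below both without in 68 of the 139 and above in none, with a wide gap in 32, and the median difference was -0.24. Of all genes, 12% lay above and 12.9% below, and 3.35% lay below with a wide gap.

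Mitosis was the longest of these lists, with 62 measured genes. Differences were below 0 in 60 of the 62, against 10330 of all 19938 genes. The groups did not overlap in 34, all lower with tamoxifen (beside 12.9% of all genes), and the median difference was -0.28. The mean level was 9.23 and 9.05 without and 8.79 and 8.89 with. The median was -0.42 without PKM2 replicate 2 and between -0.38 and -0.22 without any 1 of the other line B samples. Mki67, the Ki-67 antigen of cycling cells, was at 10.10 and 10.12 without and 9.53 and 9.70 with, a difference of -0.49 (SE 0.09, adjusted p = 0.216 with limma). Ect2, the exchange factor that starts cytokinesis, was at 10.005 and 9.785 without and 9.32 and 9.34 with, a difference of -0.57 (SE 0.11, adjusted p = 0.216). Cenpn, which reads the centromeric nucleosome, was at 8.902 and 9.003 without and 8.467 and 8.107 with, a difference of -0.67 (SE 0.13). Birc5, the survivin subunit of the chromosomal passenger complex, was at 9.99 and 9.86 without and 9.50 and 9.33 with, a difference of -0.51 (SE 0.11). In these genes the groups did not overlap and none passed the threshold. Cenpk, a kinetochore protein, followed the crosswise order of samples, at 10.16 and 9.28 without and 9.04 and 9.99 with. The whole list leaned the same way. Its median of replicate 2 minus replicate 1 was -0.22 without and 0.10 with tamoxifen, against 0.04 in each pair over all genes. Between single samples, its median difference ran from -0.51 (replicate 1 of each group) to -0.16 (replicate 2 of each group). How much of the difference goes with that order was not tested. Some mitotic genes hardly differed: Cdc20, the activator of the anaphase-promoting complex, by -0.04 and Pttg1, the securin, by 0.02.

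Stretches of promoter are shown for 4 mitotic genes as examples of a match to the cell cycle homology region, in capitals. The match is on the strand of the gene for Ect2 and Mki67 and on the opposite strand for Cenpn and for Kif2c, a kinesin that takes microtubules apart.
Ect2 (chr3:27153957-27154022, - strand): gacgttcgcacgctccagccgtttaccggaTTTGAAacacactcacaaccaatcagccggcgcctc
Mki67 (chr7:135716442-135716507, - strand): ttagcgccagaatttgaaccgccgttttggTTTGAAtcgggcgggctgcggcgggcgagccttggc
Cenpn (chr8:116921701-116921739, + strand): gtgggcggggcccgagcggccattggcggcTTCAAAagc
Kif2c (chr4:117178840-117178905, - strand): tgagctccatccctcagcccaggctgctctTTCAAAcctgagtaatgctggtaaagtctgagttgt
Promoters were found for 54 of the 62 genes. The motif TTTGAA was present on either strand in 19 of 60 mitotic promoters (31.67%) and in 13.38% of all promoters, over the same 250 bases. It was not particular to the mitosis list. The 6 lists of interferon-induced effectors held it in 20 of 78 promoters (25.64%) and the replication lists in 8 of 57 (14.04%). The E2F motifs TTTCCCGC or TTTGGCGC were present in 7 of 57 promoters of the replication lists (12.28%), in 4 of 60 of the mitosis list (6.67%) and in 1.83% of all.

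Of 24 genes of the MCM helicase and of origin licensing, 11 lay below and none above (beside 12.9% and 12% of all genes). Their median was -0.18, and -0.11 without PKM2 replicate 1. Mcm6, a subunit of the helicase, was at 9.68 and 9.36 without and 9.11 and 9.20 with, a difference of -0.37 (SE 0.12, adjusted p = 0.749), and Ticrr, needed to fire origins, differed by -0.44. Of 30 genes of polymerases and the fork, 14 lay below and none above, with a median of -0.19. Wdhd1, which ties the helicase to the polymerase, was at 9.93 and 9.86 without and 9.21 and 9.27 with, a difference of -0.65 (SE 0.10, adjusted p = 0.0885). Pclaf, a PCNA-binding protein, was at 10.09 and 10.08 without and 9.65 and 9.68 with, and Pole, the leading-strand polymerase, at 8.05 and 8.04 without and 7.72 and 7.70 with. In both genes the samples of a group were nearly equal. Of 23 genes of homologous recombination and the Fanconi pathway, 9 lay below, 7 of them with a wide gap, and none above. Brca2, a mediator of strand exchange, differed by -0.46.

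Of 25 cyclins, cyclin-dependent kinases and E2F genes, 9 lay below and 2 above (36% and 8%, beside 12.9% and 12% of all genes), with a median of -0.11. Ccna2, the cyclin of S phase and mitotic entry, was at 10.56 and 10.35 without and 9.80 and 10.06 with, a difference of -0.52 (SE 0.12, adjusted p = 0.353). Cdc25c, the phosphatase that activates the mitotic kinase, was at 8.34 and 8.06 without and 7.52 and 7.56 with, a difference of -0.66 (SE 0.13, adjusted p = 0.26). Among the brakes, Cdkn2c was lower by 0.42 and Cdkn1c was at 7.77 and 7.77 without and 7.99 and 8.02 with. Cdkn2a, the p16 and p19ARF locus, was at 7.16 and 7.07 without and 7.11 and 7.15 with, and overlapped.

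Of 30 p53 targets, 10 lay above and 2 below (33.3% and 6.67%, beside 12% and 12.9% of all genes). In 5 the gap above was wide (beside 2.87% of all genes). Their median was 0.08 (0.12 without PKM1 replicate 2), with no call. Mdm2, the ligase that degrades p53, was at 11.21 and 11.14 without and 11.44 and 11.53 with, a difference of 0.31 (SE 0.09, adjusted p = 0.654). Perp, a desmosomal protein, was at 9.17 and 8.95 without and 9.56 and 9.64 with, a difference of 0.54 (SE 0.10, adjusted p = 0.216). Fas, the death receptor, differed by 0.47 and Ccng1, a cyclin induced by p53, by 0.20.

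**Figure D5:**
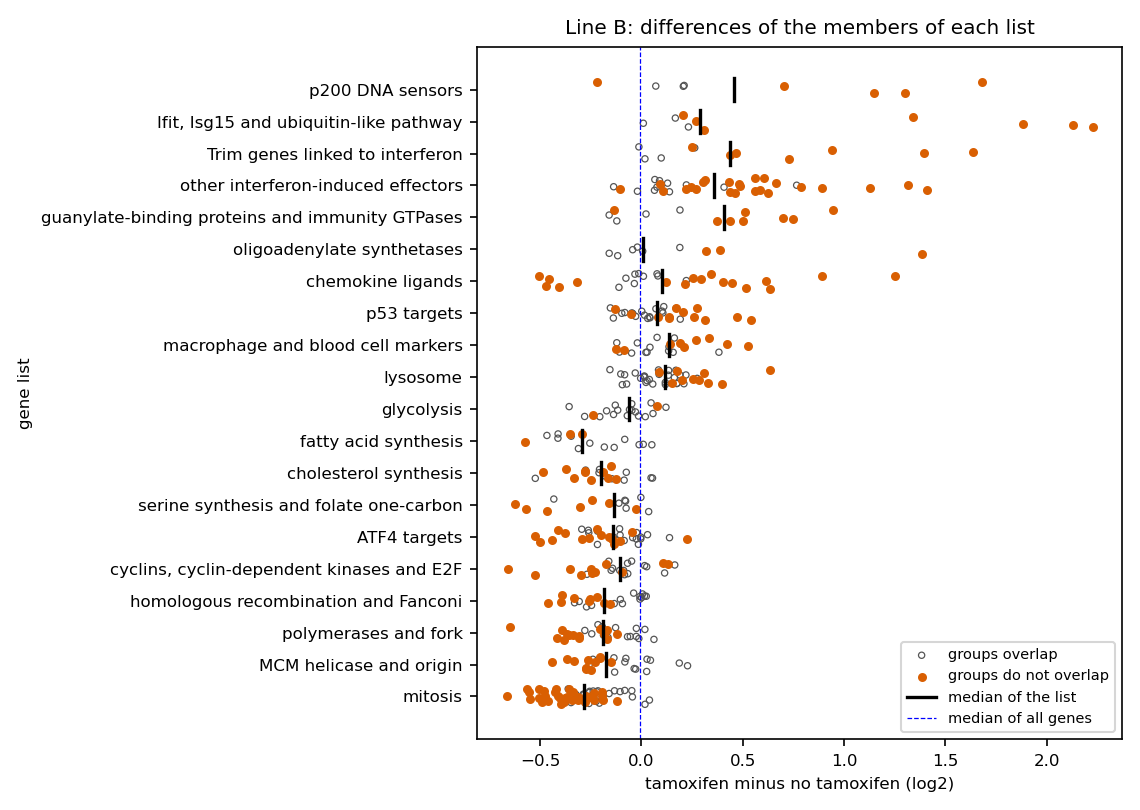
Difference between the line B group means for each measured member of 20 gene lists (x axis, log2), filled where the groups do not overlap and open where they do, with the median of each list as a black bar and the median of all genes (-0.01) as a dashed line. Most of the mitosis members lie left of the dashed line, and a few interferon-induced genes reach beyond 1.

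The lower genes with the smallest p, none of which passed, were of several kinds. Sema3a, a secreted guidance cue, was at 11.03 and 10.97 without and 10.32 and 10.42 with, a difference of -0.63 (SE 0.09, adjusted p = 0.0876 with limma). Palmd, a cytosolic protein of the paralemmin family, was at 9.24 and 9.08 without and 8.55 and 8.39 with. Hmgn2, a nucleosome-binding protein, was at 10.86 and 10.83 without and 10.24 and 10.22 with, a difference of -0.62 (SE 0.09, adjusted p = 0.0885). Abi3bp, a matrix protein, was at 9.69 and 9.35 without and at 8.80 in both samples with tamoxifen, a difference of -0.72 (SE 0.12, adjusted p = 0.153). Gjb2, the gap junction protein connexin 26, was at 10.14 and 9.87 without and 9.16 and 9.43 with, a difference of -0.71 (SE 0.14). Itih2, which links hyaluronan to other matrix, Rspo2, an amplifier of Wnt signalling, Gcnt4, a glycosyltransferase, and Mecom, a zinc finger transcription factor, differed by -0.58, -0.53, -0.54 and -0.52. The groups of all these genes did not overlap.

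Pkm, the gene whose isoform the design changes, was measured by 2 probe sets, and neither passed. The brighter probe set was at 10.82 and 11.21 without and 11.41 and 10.75 with, a difference of 0.07 (SE 0.21, 95% interval -0.42 to 0.55). A second probe set was at 10.33 and 11.20 without and 10.82 and 10.15 with, a difference of -0.28 (SE 0.28, 95% interval -0.93 to 0.36). Both were high in PKM2 replicate 2 and PKM1 replicate 1, the crosswise order. The exons that the probes cover are not given in the sources used here, so the isoforms were not separated and the labels not checked by them. Pklr, the liver and red cell pyruvate kinase, was at 6.85 and 7.05 without and 6.98 and 7.01 with.

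The splicing factors of Pkm did not pass either. Ptbp1 was at 9.10 and 10.21 without and 9.61 and 8.37 with, so that one sample of each group lay far above the other and the difference of -0.66 had an SE of 0.43. Srsf3 was at 11.78 and 11.85 without and 11.62 and 11.54 with, a difference of -0.24 (SE 0.09, adjusted p = 0.907), and Hnrnpa2b1 differed by -0.03. Hnrnpa1 had no probe set of its own here.

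Glycolysis followed the crosswise order of the samples. Of its 19 measured genes, 1 lay above and 1 below (beside 12% and 12.9% of all genes). Its mean level was 8.96 and 9.19 without and 9.20 and 8.79 with. The list's median difference was -0.06 and ran from -0.22 without PKM1 replicate 1 to 0.12 without PKM1 replicate 2, so that its sign turned on a single array. Ldha, which turns pyruvate into lactate, was at 11.97 and 12.51 without and 12.41 and 11.36 with, a difference of -0.36 (SE 0.30). Slc16a1, a lactate transporter, was at 7.07 in both samples without and at 6.86 and 6.80 with, and Hk1, a hexokinase, at 12.96 and 12.68 without and 12.91 and 12.97 with. The pentose phosphate pathway (6 genes, median 0.05), the pyruvate entry and TCA cycle genes (31 genes, 1 above and 5 below, median -0.05) and the nuclear genes of the respiratory chain (42 genes, 3 above and 2 below, median 0.05) had no call. When 1 line B sample was left out, these medians ranged from -0.06 to 0.17, from -0.15 to 0.07 and from -0.03 to 0.05, so that each changed sign. Idh2, the mitochondrial NADP isocitrate dehydrogenase, was at 9.04 and 9.58 without and 9.28 and 8.47 with.

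In the serine, ATF4, cholesterol and fatty acid lists, PKM1 replicate 2 had the lowest mean level of the 4 line B samples. Of 14 genes of serine synthesis and folate one-carbon metabolism, 7 lay below and none above (beside 12.9% and 12% of all genes). Their median was -0.13, with list means of 8.33 and 8.50 without and 8.33 and 8.06 with. Mthfd2, a mitochondrial folate enzyme, was at 10.76 and 10.88 without and 10.49 and 10.23 with, a difference of -0.46 (SE 0.11, adjusted p = 0.409). Aldh1l2 and Mthfd1l, of the same mitochondrial pathway, differed by -0.62 and -0.57. ATF4 is a transcription factor that responds to amino acid shortage, and of its 34 measured targets 14 lay below and 1 above, with a median of -0.14. The list means of 8.999 and 9.174 without and 9.062 and 8.788 with overlapped. Slc7a11, the cystine importer, was at 7.92 and 7.97 without and 7.63 and 7.21 with, a difference of -0.53 (SE 0.14, adjusted p = 0.521), and Asns, asparagine synthetase, at 11.90 and 11.93 without and 11.72 and 11.59 with. Without PKM1 replicate 2 the medians were -0.09 for the serine list and -0.04 for the ATF4 list, and without PKM1 replicate 1 they were -0.21 and -0.25.

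Of 20 genes of cholesterol synthesis, 10 lay below and none above (beside 12.9% and 12% of all genes). In 5 the gap below was wide (beside 3.35% of all genes), and the median was -0.20. Hmgcs1, which makes the precursor of mevalonate, was at 10.24 and 10.29 without and 9.83 and 9.72 with, a difference of -0.49 (SE 0.09, adjusted p = 0.216). Fdps, farnesyl diphosphate synthase, was at 10.23 and 10.18 without and 9.85 and 9.82 with, a difference of -0.37. Of 15 genes of fatty acid synthesis, 3 lay below, and the list means of 9.21 and 9.46 without and 9.32 and 8.85 with overlapped. Elovl6, an elongase, was at 10.73 and 10.87 without and 10.35 and 10.11 with, a difference of -0.57 (SE 0.11, adjusted p = 0.216). The fatty acid median of -0.29 became 0.04 without PKM1 replicate 2, and the cholesterol median became -0.06. Without PKM1 replicate 1 they were -0.53 and -0.32. No member of these lists was called.

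Of 19 genes of pyrimidine and deoxynucleotide synthesis, 6 lay below and none above (beside 12.9% and 12% of all genes). Their median of -0.14 was -0.06 without PKM1 replicate 2 and -0.23 without PKM1 replicate 1. Dut, which keeps uracil out of DNA, was at 8.58 and 8.60 without and 8.26 and 8.16 with. Of 14 genes of purine synthesis, 3 lay above and 3 below. Myc, a driver of growth, was at 10.45 and 10.60 without and 10.53 and 10.47 with, and its list of ribosome biogenesis genes had a median of -0.08 (between -0.14 and -0.02 when 1 sample was left out). Hif1a, the hypoxia factor, was at 11.45 and 11.29 without and 11.41 and 11.56 with.

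Among genes of the matrix and its enzymes, Mmp13 was the 1 that limma called. Of 24 metalloproteinases and inhibitors, 6 lay above and 3 below (25% and 12.5%, beside 12% and 12.9% of all genes). Of these 1 was called, and the list median was -0.01 (between -0.10 and 0.18 when 1 sample was left out). Mmp3, or stromelysin 1, was at 7.47 and 7.23 without and 8.04 and 8.07 with, a difference of 0.71 (SE 0.16, adjusted p = 0.327), and Mmp10 and Mmp12 differed by 0.49 and 0.43. Of 29 proteoglycans and other matrix genes, 6 lay above and 5 below. Lum, which shapes collagen fibrils, was at 7.14 and 6.47 without and 7.83 and 7.93 with, a difference of 1.07 (SE 0.23, adjusted p = 0.287), and Dcn, decorin, at 10.99 and 10.75 without and 11.31 and 11.35 with. Apod, the apolipoprotein D gene, was at 7.75 and 7.45 without and 8.87 and 8.59 with, a difference of 1.12 (SE 0.17, adjusted p = 0.0918). Of 22 collagens, 2 lay above and 2 below (9.09% each, under the shares of all genes). Col1a1, the main chain of type I collagen, was at 9.259 and 10.296 without and 10.196 and 8.997 with, the crosswise order again.

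Of 25 cytokines and growth factors secreted by senescent cells, 8 lay above and 2 below (32% and 8%, beside 12% and 12.9% of all genes). Their median was 0.05 (0.12 without PKM2 replicate 2 and 0.02 without PKM2 replicate 1). Il6 was at 8.67 and 8.42 without and 8.88 and 9.58 with, a difference of 0.68 (SE 0.25, adjusted p = 0.871), much of it from PKM1 replicate 2. Of 10 insulin-like growth factors and binding proteins, 3 lay above. Igf1 was at 9.02 and 8.94 without and 9.47 and 9.40 with, a difference of 0.45 (SE 0.10, adjusted p = 0.313). Of 39 lysosomal genes, 10 lay above and none below, with a median of 0.12 that became -0.01 without PKM1 replicate 1 and 0.28 without PKM1 replicate 2. Gpnmb, a glycoprotein of stressed lysosomes, was at 8.87 and 9.24 without and 9.98 and 9.40 with.

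Tamoxifen is itself a ligand of the estrogen receptors, whose genes and targets were listed for that reason. Of 16 measured, 2 lay above and 4 below (12.5% and 25%, beside 12% and 12.9% of all genes). Their median was 0.03 (between -0.10 and 0.05 when 1 sample was left out), with no call. Esr1, estrogen receptor alpha, was at 8.30 and 8.68 without and 8.72 and 8.40 with, and overlapped. Pgr, the progesterone receptor, a classical target, was at 6.72 and 7.05 without and 6.42 and 6.64 with, a difference of -0.36 (SE 0.13, adjusted p = 0.875). Stc1, a glycoprotein hormone, differed by 0.24.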

How the data were processed

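The authors used RMA as run by Affymetrix Expression Console to normalize the array intensities, per the series' design text, which names no version. RMA corrects background, quantile-normalizes the arrays and summarises probes. The deposited table holds log2 values for 35556 probe sets and 8 samples. Medians over all probe sets lay between 7.17 and 7.24 in line B, and no array was normalized again. RMA compresses differences of dim probe sets, and the number of arrays limits the precision.

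The platform annotation gave 1 symbol for 21789 probe sets and several for 1621, and 12146 are unnamed here. Of a gene with several probe sets (999 genes), the one with the highest mean was used, which left 19938 genes. Groups follow the sample titles.

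Tests used limma 3.58.1 in R 4.3.3 (lmFit, eBayes) on 4 group means over the 8 samples (4 residual degrees of freedom), the contrast line B with minus without tamoxifen, and Benjamini-Hochberg adjustment over all genes at 0.05. The fit was tested on simulated data with independent noise of the same size in both lines. That test therefore did not cover the wider spread or the crosswise order of line B. Lists (53, with 1077 of 1193 entries measured, 12 of them by an older symbol) are described by counts and medians with no test. The comparison, the lists and the genes were chosen with earlier results of these data known. Named were all called genes, the 10 smallest p in each direction, the 6 largest differences in each direction with a wide gap, the 5 largest replicate differences in each direction, up to 4 members of each list by p, and 22 fixed genes, leaving out unnamed transcripts, small RNAs and olfactory or vomeronasal receptors. Other genes were named after their values were seen. Promoters of 15614 genes were found in the RefSeq table.

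Alternatives were to fit line B alone, to leave out each sample, to weight the arrays, to shift them to a common median or quantile-normalize them again, to drop the 30% dimmest genes, to use eBayes with trend and robust options, and to take probe sets singly or averaged by gene. The leading axis of differences within groups as a covariate was added after seeing the data. Of the 10 lower genes with the smallest p, 1 is not reported here.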

Additional observations from a re-analysis of the deposited data

How the results depend on the processing

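The count of 4 calls became 1 with array weights per array and 1 with weights per line, 2 with the line B samples alone (Ifit1 and Ifit3b), and between 0 and 6 when each sample was left out. It became 142 (96 higher and 46 lower) with the leading axis of differences within groups as a covariate, an alternative chosen after seeing the data whose axis comes from these same samples. It was 3 or 4 under the other settings run, and none of the settings without that covariate called a lower gene. The count of genes whose groups do not overlap fell from 4954 to 3285 without the 30% dimmest genes, which tests fewer genes. The median absolute replicate difference in line B, 0.151, was 0.145 with a common median and 0.145 after quantile normalization again, and 0.162 without the dimmest genes. The median of the mitosis list, -0.28, lay between -0.42 and -0.22 when each line B sample was left out. That of the other interferon-induced effectors, 0.36, was 0.46 without the dimmest genes, 0.31 with every probe set on its own and between 0.33 and 0.35 when each sample was left out. The cause of these shifts was not tested where none is given. Dim genes have compressed differences. The cut for dim genes used means over all 8 samples, so high values with tamoxifen help a gene to pass it. List medians after that cut are therefore not independent of the tamoxifen difference. No paired analysis was possible because the labels give the samples of the groups no shared replicate numbers.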

Other observations

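Limma called no member of the lists described here. Of 20 connexins, semaphorins and neuropilins, 2 lay above and 6 below (10% and 30%, beside 12% and 12.9% of all genes). In 3 the gap below was wide (beside 3.35% of all genes). Their median difference was -0.06 (between -0.16 and -0.02 when 1 line B sample was left out). Besides Sema3a and Gjb2, Gja1, the main connexin of fibroblasts, was at 11.43 and 11.73 without and 11.31 and 10.73 with tamoxifen, and Gjc1 at 9.20 and 8.91 without and 8.63 and 8.85 with. Of 32 Hox genes, which mark the position along the body from which fibroblasts come, 3 lay above and 6 below (9.38% and 18.75%). Their median was -0.01. Hoxd13 was at 8.91 and 9.06 without and 8.73 and 8.66 with. Of 14 contractile genes of myofibroblasts, 7 lay above and none below, beside 12% of all genes above, with a median of 0.08 that ranged from 0.02 to 0.21 when 1 sample was left out. Myh11, the smooth muscle myosin heavy chain, was at 9.25 and 9.34 without and 9.71 and 9.77 with.

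Of 17 complement genes, 5 lay above and none below (beside 12% and 12.9% of all genes). Their median was 0.06 (between -0.01 and 0.09 when 1 sample was left out). Cd55, which shields cells from complement, was at 10.17 and 9.65 without and 10.45 and 10.83 with, a difference of 0.73 (SE 0.19, adjusted p = 0.523 with limma). Of 25 NRF2 targets, 6 lay above and 4 below. Aox1, an aldehyde oxidase, was at 7.95 and 7.94 without and 8.25 and 8.26 with. Both mitochondrially encoded transcripts that were measured lay above. COX2, a subunit of cytochrome oxidase, differed by 0.37 (SE 0.11), and ND3, of complex I, was at 12.29 and 12.15 without and 12.48 and 12.54 with. Markers of other cell types went both ways. Of 13 neural and glial markers, 4 lay above and 2 below (beside 12% and 12.9% of all genes), with a median of -0.02. The neuronal Map2 was at 7.69 and 7.80 without and 7.30 and 7.24 with, and Tubb3 at 9.31 and 9.23 without and 9.72 and 9.51 with. Of 12 endothelial markers, 1 lay above and 1 below, with a median of -0.05. The endothelial transcription factor Erg was at 7.80 and 8.09 without and 7.49 and 7.50 with. Of 19 skeletal muscle markers 2 lay above and 4 below, and of 11 adipocyte markers 2 above and 1 below.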
